A study of Mus musculus with 4 samples.

Results

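The cytosolic ribosomal protein genes were taken as every gene symbol that has Rpl or Rps before a number, with at most one closing a, x or y, together with *Rplp0*, *Rplp1*, *Rplp2* and *Rpsa*. This rule, which uses names and no measured value, found 74 genes among the 20642 gene symbols of the deposited table. Of these, 44 encode proteins of the large ribosomal subunit (*Rpl* genes and the *Rplp* genes) and 30 encode proteins of the small subunit (*Rps* genes and *Rpsa*). Engaged RNA polymerase was measured by precision nuclear run-on sequencing (PRO-seq) in liver nuclei of C57BL/6 mice on postnatal day 14. The comparison asks at which stage of transcription the histone deacetylase HDAC3, the enzyme of a corepressor complex, acts. WT mice carried *Hdac3* +/+ and KO mice carried *Hdac3* alleles F/F or F/-, and both genotypes also carried Alb-Cre, a Cre recombinase under the albumin promoter, which acts in hepatocytes. There were 2 libraries per genotype (WT1 and WT2, KO1 and KO2), each from nuclei pooled over several mice, and no sorting of cell types is described.

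Ribosomal protein genes are among the most strongly transcribed genes of growing cells, and their products are needed in equal amounts, 1 copy per ribosome for nearly all of them. Their mRNAs usually begin with a run of pyrimidines (C and T in the DNA), the 5′ terminal oligopyrimidine tract, through which mTOR signalling controls their translation, and their promoters are commonly bound by factors of the ETS family, YY1 and SP1. Many of these genes are short and carry small nucleolar RNAs (snoRNAs), guides of ribosomal RNA modification, in their introns.

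Runs of pyrimidines were counted in the letters around the annotated starts. Such a run need not lie at the start itself, so the counts do not measure terminal tracts. RefSeq promoter sequences (build GRCm38.p6) were matched for 54 of the 74 genes, which have 63 annotated promoters. In the window from 50 bases before to 30 bases after the start, 71.4% of the 63 promoters held an unbroken run of at least 7 C or T bases on the coding strand. The same was true of 40.2% of the 11588 promoters of active genes and of 43.3% of all 32851 promoters. The median longest run was 9 bases in the ribosomal protein promoters and 6 bases in those of active genes. Among the promoters with the longest runs, 4 are given with the run in capitals. Each is read 5′ to 3′ on the coding strand with the annotated start at base 51. A promoter of *Rps24* had a run of 19 bases and that of *Rpl11* a run of 17 bases, and neither is shown. The windows are *Rpl7a* at chr2:26910757-26910836 (plus strand), *Rpl27a* at chr7:109519145-109519224 (plus strand), *Rpl35* at chr2:39005102-39005181 (minus strand) and *Rpl15* at chr14:18270957-18271036 (minus strand).
*Rpl7a*: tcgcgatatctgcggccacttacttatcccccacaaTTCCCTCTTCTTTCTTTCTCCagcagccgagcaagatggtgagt
*Rpl27a*: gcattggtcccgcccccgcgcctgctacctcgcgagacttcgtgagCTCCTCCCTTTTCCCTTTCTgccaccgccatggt
*Rpl35*: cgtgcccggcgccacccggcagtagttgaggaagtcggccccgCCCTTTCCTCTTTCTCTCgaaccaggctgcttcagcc
*Rpl15*: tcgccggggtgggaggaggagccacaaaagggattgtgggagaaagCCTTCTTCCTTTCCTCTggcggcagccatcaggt

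The runs of these 4 promoters were 21, 20, 18 and 17 bases long, and each spans or touches the annotated start. The promoters of the genes with the most polymerase near the start are less uniform. They are shown with their longest run in capitals, for *Rpl10* at chrX:74270766-74270845 (plus strand), *Rpl37a* at chr1:72711210-72711289 (plus strand), *Rps9* at chr7:3703991-3704070 (plus strand) and *Rpl31* at chr1:39367801-39367880 (plus strand).
*Rpl10*: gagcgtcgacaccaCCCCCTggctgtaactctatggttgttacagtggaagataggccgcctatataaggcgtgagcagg
*Rpl37a*: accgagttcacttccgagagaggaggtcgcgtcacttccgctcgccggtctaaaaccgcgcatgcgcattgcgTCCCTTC
*Rps9*: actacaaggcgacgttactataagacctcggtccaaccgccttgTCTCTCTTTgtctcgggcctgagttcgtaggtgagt
*Rpl31*: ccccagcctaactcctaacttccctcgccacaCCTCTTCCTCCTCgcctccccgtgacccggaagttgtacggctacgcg

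*Rpl10*, the gene with the most promoter-proximal reads, had no run longer than 6 bases in this window, whereas *Rpl31* had 13. At the other end of the range, *Rpl24* at chr16:55966225-55966304 (plus strand), *Rpl12* at chr2:32961662-32961741 (plus strand) and *Rps28* at chr17:33824533-33824612 (minus strand) had the fewest promoter-proximal reads of the matched genes.
*Rpl24*: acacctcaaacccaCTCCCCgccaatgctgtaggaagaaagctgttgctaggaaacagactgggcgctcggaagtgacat
*Rpl12*: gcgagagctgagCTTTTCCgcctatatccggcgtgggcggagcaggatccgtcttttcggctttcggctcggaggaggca
*Rps28*: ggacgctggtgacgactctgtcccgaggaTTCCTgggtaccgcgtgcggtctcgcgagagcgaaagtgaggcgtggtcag

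Their longest runs were 6, 7 and 5 bases. Other short motifs were searched on both strands from 250 bases before to 50 bases after the start. The ETS-type motif CCGGAAG was in 36.5% of the ribosomal protein promoters, against 16.5% in active genes and 8.86% in all promoters. The YY1-type motif AAGATGGC was in 9.52%, against 4.17% and 2.75%. These promoters belong to 4 of the 54 matched genes, since *Rpl35a* has several promoters with the motif. The GC box GGGCGG was in 60.3%, against 60.8% and 35.7%, the E box CACGTG in 9.52%, against 9.73% and 7.15%, and CCAAT in 33.3%, against 37.8% and 37.4%. The sequence TATAAA was in 9.52%, against 7.48% and 13.6%. The palindromic NRF1 motif, present in the *Rpl37a* window, was in 3.17%, against 2.08% and 0.971%. A match gives the letters only and says nothing of binding.

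The values of the table are read counts per transcript in 2 regions, each multiplied by 1 scaling factor per library. The promoter-proximal value counts the reads in the 50 bp window with the most reads around the transcription start site, and the gene body value counts the reads from 1 kb downstream to the termination site. Both are called normalized reads here, and values by library are given with the first and second library of each genotype in order. The reads on genes were 16628518 to 26190040 per library, with KO2 the shallowest. Promoter-proximal windows held 10.3% and 9.38% of them in WT1 and WT2, and 13.6% and 17.0% in KO1 and KO2. Over the 12705 active genes (promoter-proximal reads above 0 and more than 4 normalized reads per kb of gene body), the median log2 fold change (KO over WT) was 0.56 in the promoter-proximal region and -0.09 in the gene body, and changes of the ribosomal protein genes are set beside these medians. *Hdac3* itself had gene body reads of 665 and 648 (WT) and 609 and 582 (KO), with both KO libraries below both WT libraries and a log2 fold change of -0.14 (SE, standard error, 0.13, adjusted p = 0.413, limma with Benjamini-Hochberg adjustment), so these reads do not check the genotype labels. Marker genes of several liver cell types also differed between the genotypes. Of 8 listed hepatocyte markers, 7 were found among the gene symbols, and all 7 were active. Of these 7, 5 fell in the gene body. The summed gene body reads of the 7 were 288878 and 289123 in WT and 140694 and 136237 in KO. All 6 stellate cell markers and 5 of 6 endothelial markers rose there. The summed stellate reads were 9184 to 10317 in WT and 18302 to 19969 in KO, and the summed endothelial reads 49339 to 53369 in WT and 83004 to 92920 in KO. Of 5 active Kupffer cell and other myeloid markers, none was called in either region. In the gene body, 1 of 3 active cholangiocyte markers fell, 2 of 5 active erythroid markers rose and 3 fell, 1 of 5 lymphocyte markers rose and 1 fell, and 0 of 12 proliferation genes were called (limma, 3 of the 12 rose in the promoter-proximal region). Over all active genes, 10.4% rose and 11.4% fell in the gene body, and 25.8% rose and 2.20% fell in the promoter-proximal region. In bulk nuclei, fewer cells of a type and less transcription per cell cannot be told apart, and the part of these markers in the results below was not tested.

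All 74 ribosomal protein genes were active at the cutoff of 4 normalized reads per kb. Their promoter-proximal reads had a median of 288, against 114 over all active genes, and 38 of the 74 lay in the top quartile of active genes. Their gene body density had a median of 131 normalized reads per kb, against 37.1 over all active genes. The genes were short, with a median gene body of 2019 bp against 19243 bp, so the reads behind a gene body value were few. The median gene had 264 gene body reads, against 727 for an active gene. The gene body was under 1 kb in 11 genes, and in *Rpl41* (59 bp), *Rps21* (66 bp), *Rps20* (128 bp) and *Rplp1* (228 bp) it held at most 9.11 normalized reads in any library. Gene body results for these 4 genes carry almost no information. The level near the start and the density downstream were at most weakly related. The correlation of log2 promoter-proximal reads with log2 gene body density was 0.04 (Pearson) and 0.10 (Spearman) across the 74 genes. Over the 63 genes with a gene body of at least 1 kb it was 0.20 and 0.19. Both are descriptions across genes that share the same 4 libraries.

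**Figure D1:**
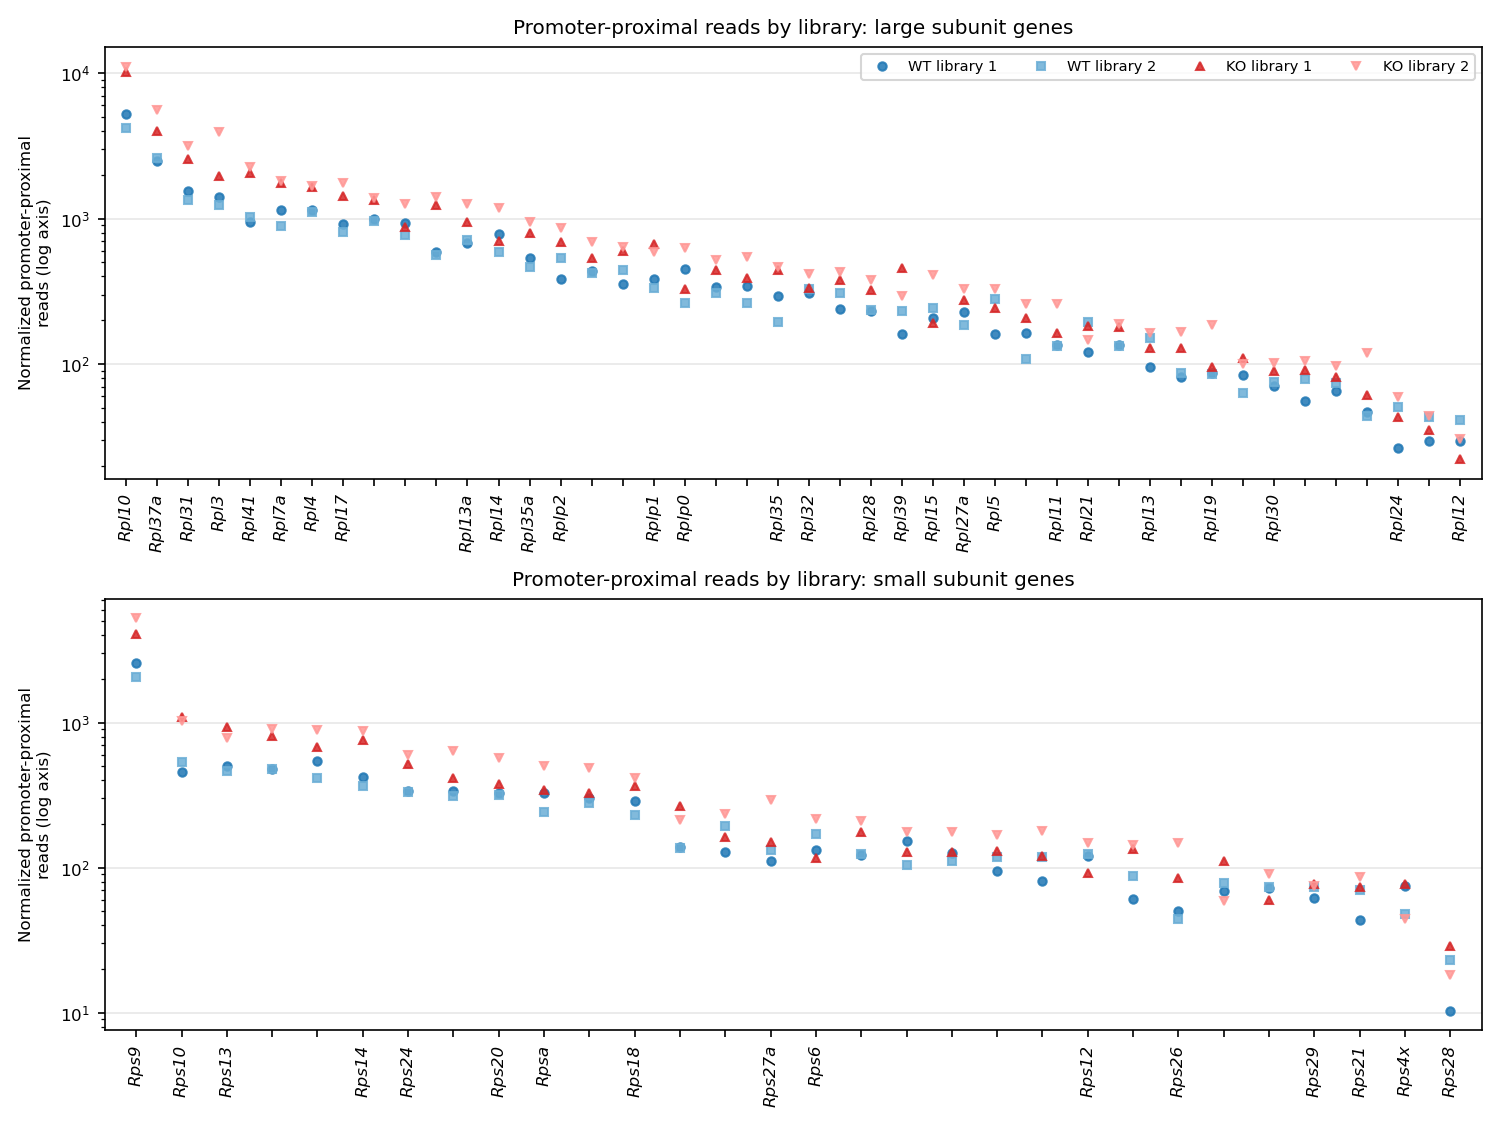
Normalized promoter-proximal reads (log axis) of the 74 ribosomal protein genes in each of the 4 libraries, large subunit genes above and small subunit genes below, ordered by their mean, with the genes named in the text labelled. Blue symbols are the 2 WT libraries and red symbols the 2 KO libraries. Levels run from 11068 reads (*Rpl10* in KO2) down to 10.3 (*Rps28* in WT1), and both KO libraries lie above both WT libraries in 56 genes.

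*Rpl10*, on chromosome X from 74270816 to 74273135 (GRCm38.p6), had the highest level. It encodes a protein that joins the large subunit late, close to the peptidyl transferase centre. Its promoter-proximal reads were 5203 and 4175 (WT) and 10232 and 11068 (KO), which places it at the 99.9th percentile of active genes. Both KO libraries were well above both WT libraries. *Rpl37a* followed with 2487 and 2623 (WT) and 3969.5 and 5569 (KO), and *Rps9*, a small subunit gene on chromosome 7 from 3703954 to 3706897, with 2555 and 2055 (WT) and 4088 and 5247 (KO). *Rpl31* had 1537 and 1348 (WT) and 2570.3 and 3164 (KO). In all 3 genes the KO libraries again lay above the WT libraries, with KO2 the highest. *Rpl3*, on chromosome 15 from 80077781 to 80083406, encodes a protein that reaches towards the peptidyl transferase centre, and its reads were 1410.1 and 1234 (WT) and 1961 and 3935 (KO). The rise of *Rpl3* was uneven, since KO2 was far above KO1. The lowest gene was *Rps28*, with 10.3 and 23 (WT) and 28.6 and 18.2 (KO), where the genotypes overlapped.

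In the promoter-proximal region, 21 of the 74 genes rose and 0 fell, a call needing an adjusted p below 0.05 and a log2 fold change beyond 0.6 in either direction (limma on log2 of the normalized reads plus 1, Benjamini-Hochberg adjustment over the 12705 active genes). Over all active genes, 25.8% rose and 2.20% fell, so the share of ribosomal protein genes called up, 28.4%, was close to the background. Among them were *Rpl10*, *Rpl17*, *Rpl3*, *Rpl31*, *Rpl35*, *Rpl35a*, *Rpl37a*, *Rpl39*, *Rpl41*, *Rpl7a*, *Rplp1*, *Rplp2*, *Rps10*, *Rps13*, *Rps14*, *Rps24*, *Rps26* and *Rps9*. The 21 genes comprise 13 of 44 large subunit genes and 8 of 30 small subunit genes. The median log2 fold change was 0.58 over the 74 genes and 0.56 over all active genes, and 40 of the 74 lay above the latter. In 70 genes the change was above 0. At an unadjusted p under 0.05 there were 32 genes, none of them lower in KO. edgeR on the recovered reads called 23 genes up (background 25.6%) and DESeq2 21 (background 23.8%), and both called 0 down (backgrounds 2.09% and 1.48%). Both KO libraries lay above both WT libraries in 56 of the 74 genes (background 61.9%) and below them in 0 (background 6.72%).

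**Figure D2:**
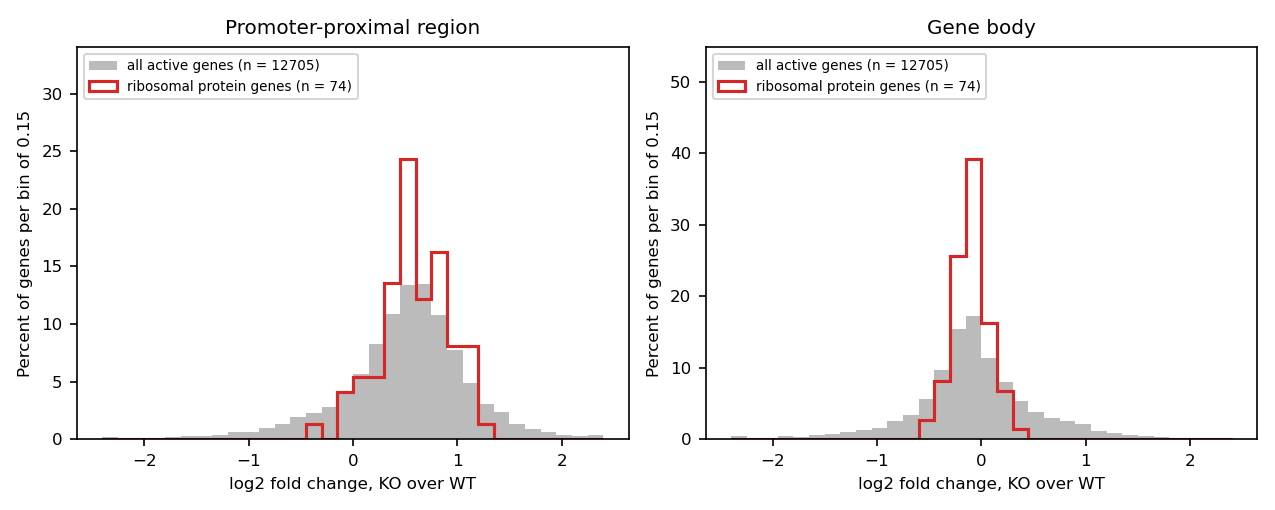
Distribution of log2 fold changes (KO over WT) in the promoter-proximal region (left) and gene body (right), as percent of genes per bin of 0.15, with changes beyond the axis placed in the outermost bins. The red outline is the 74 ribosomal protein genes and grey bars are all 12705 active genes. Both centre at the same place in each region (medians 0.58 and 0.56 on the left, -0.10 and -0.09 on the right), and the SD is 0.33 against 0.62 on the left and 0.18 against 0.60 on the right.

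The genes with the smallest adjusted p in this region included *Rpl10*, *Rpl41*, *Rpl3* and *Rps9*. The log2 fold change of *Rpl10* was 1.19 (SE 0.26, adjusted p = 0.000154). *Rpl41*, on chromosome 10 from 128548110 to 128549168, encodes the shortest ribosomal protein, and it had 947 and 1031 (WT) and 2046 and 2269.8 (KO), with the genotypes far apart. Its change was 1.12 (SE 0.28, adjusted p = 0.000891). The change was 1.07 (SE 0.27, adjusted p = 0.00137) for *Rpl3* and 1.01 (SE 0.27, adjusted p = 0.00209) for *Rps9*. The largest log2 fold change belonged to *Rps26*, on chromosome 10 from 128624529 to 128626506, a gene mutated in some families with Diamond-Blackfan anaemia, a red cell aplasia. Its reads were few, 50.5 and 44 (WT) and 84.9 and 149 (KO), with both KO libraries above both WT libraries but KO2 far above KO1. The change was 1.24 (SE 0.36, adjusted p = 0.00586). In this region the standard errors and p-values of limma come from a variance moderated over all active genes by read level. They follow the read level. The p-values match a normal distribution, so the spread between a gene's own pools of mice carried practically no weight. *Rpl3*, whose KO libraries were far apart, had an SE of 0.27, and *Rpl41*, with libraries close within each genotype, 0.28. With 2 libraries against 2, no exact permutation test could give a two-sided p under 0.33.

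The lowest changes were those of *Rpl12*, *Rps12* and *Rps4x*. *Rpl12*, on chromosome 2 from 32961712 to 32964045, encodes a protein at the base of the stalk of the large subunit. It had 29.8 and 41 (WT) and 22.3 and 30.4 (KO), with overlapping genotypes and a change of -0.41 (SE 0.41, adjusted p = 0.422). *Rps12* had 120.5 and 124 (WT) and 92.3 and 147 (KO), with KO1 below and KO2 above both WT libraries, and its change was -0.07 (SE 0.34, adjusted p = 0.886). *Rps4x*, the X-linked gene of a small subunit protein on chromosome X from 102184941 to 102189391, had 74.6 and 48 (WT) and 77.4 and 44.0 (KO). Its libraries varied more within each genotype than between them, and the change was -0.03 (SE 0.37, adjusted p = 0.95). All 3 genes lie in the lower part of the range of promoter-proximal reads.

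Across the 74 genes, the change went with the level. The correlation of log2 mean promoter-proximal reads with the log2 fold change was 0.58 (Pearson) and 0.54 (Spearman), a description only, since both come from the same 4 libraries. Of the 38 genes in the top quartile of active genes by promoter-proximal reads, 19 were called up. Of all 3176 active genes in that quartile, 1212 were called up, which is 38.2%. The difference from 19 of 38 was not tested. The 2 remaining called genes, among them *Rps26*, had lower levels.

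The count of genes called up depended on the scaling. When each library was scaled within the promoter-proximal region by the median of ratios, which brings the median change of active genes to -0.0013, the median of the 74 genes was 0.01. Of the 74 genes, 1 then passed both thresholds upwards (limma with Benjamini-Hochberg adjustment), 0 genes fell, and the background was 4.99% up and 7.41% down. At this scaling the changes of the 21 genes were 0.17 to 0.67, and 10 of the 74 had an unadjusted p under 0.05. These 10 include both rises and falls, with *Rpl12* and *Rps12* among those lower in KO. The count also rested on single libraries. It was 3 without WT1 (*Rpl10* and *Rps9* among them, background 5.53%), 0 without WT2 (background 3.88%), 26 without KO1 (background 27.7%) and 0 without KO2 (background 2.51%), with 13 and 18 genes at an unadjusted p under 0.05 where it was 0. The median of the 74 genes stayed between 0.44 and 0.70 in these fits.

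**Figure D3:**
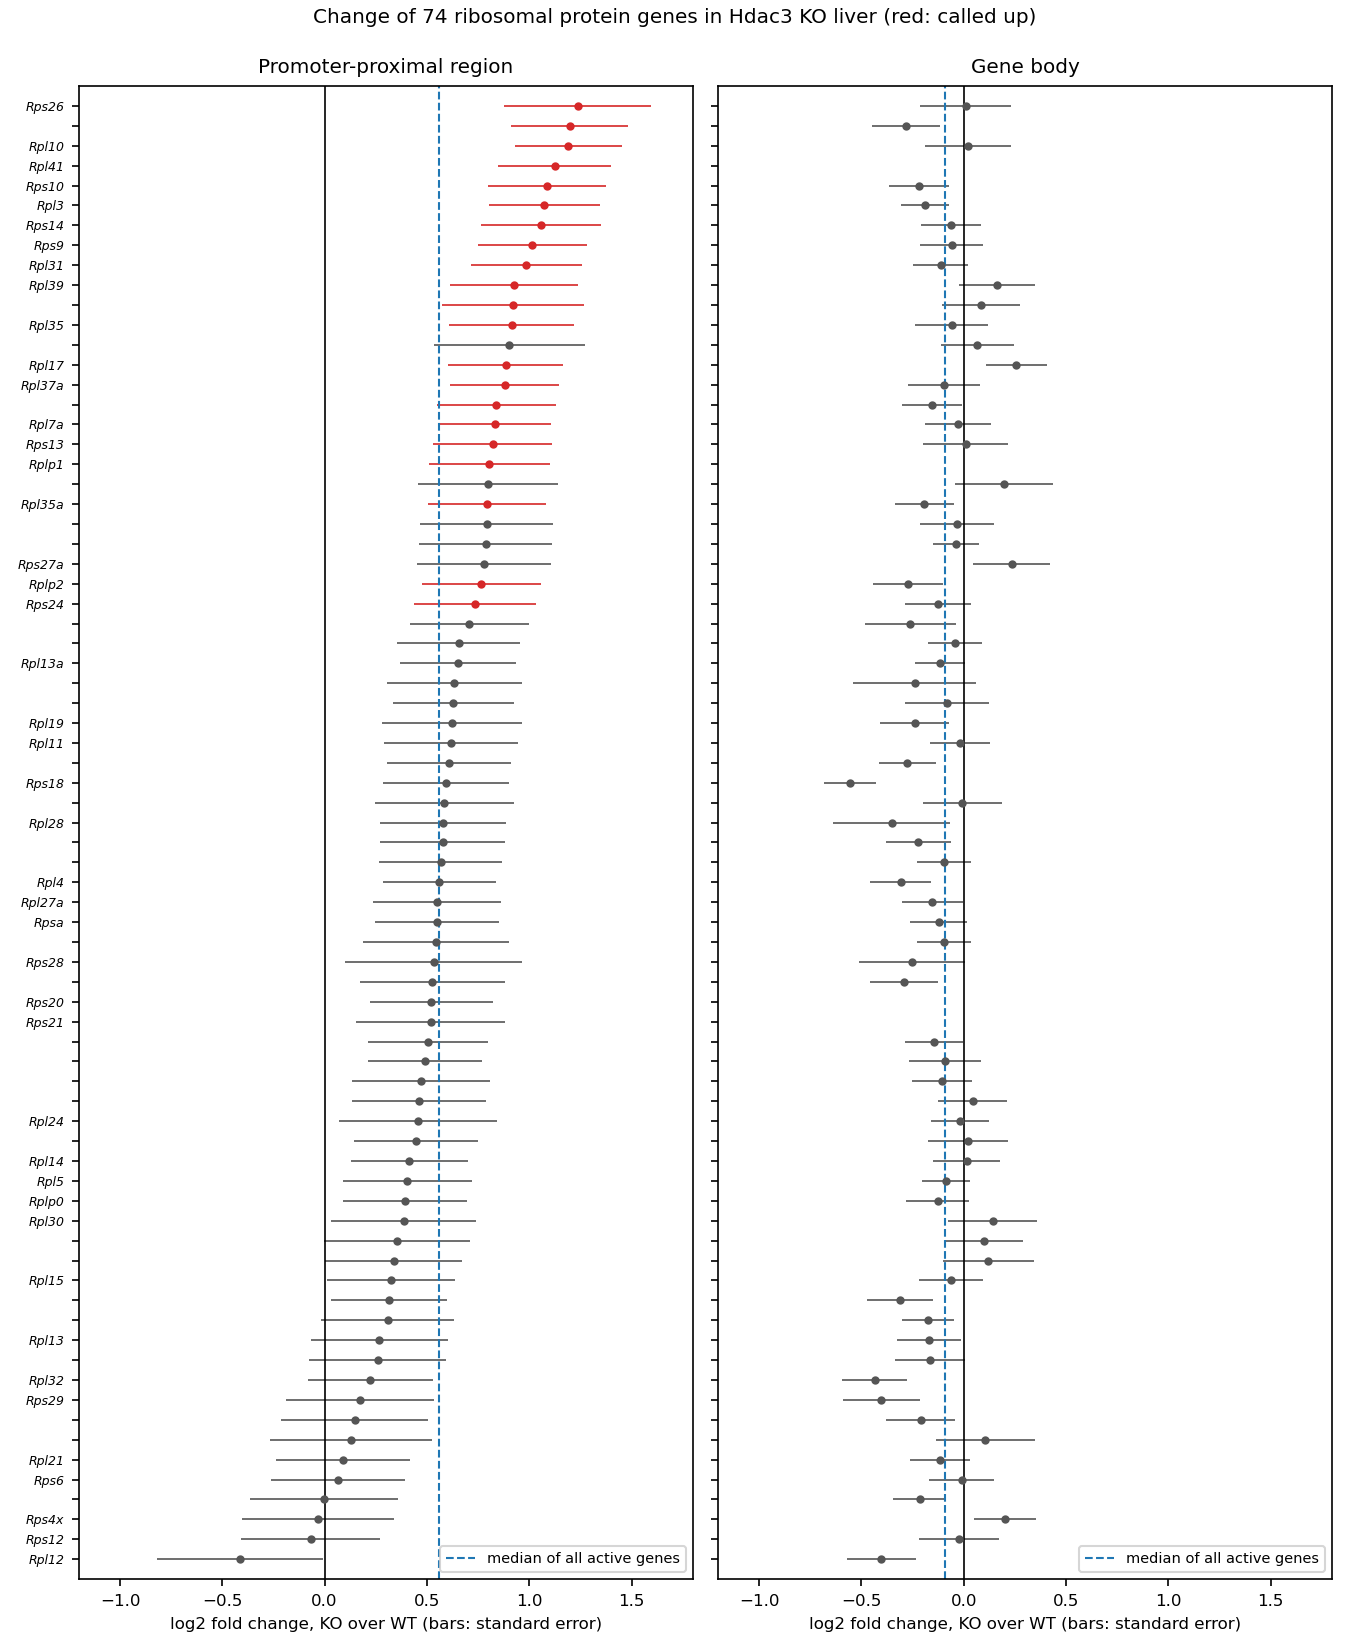
Log2 fold change (KO over WT) of each ribosomal protein gene with its standard error, in the promoter-proximal region (left) and gene body (right), in the same order, with the genes named in the text labelled. Red marks genes called up (21 on the left, 0 on the right), the dashed line is the median of all active genes (0.56 and -0.09), and the 4 genes with a gene body under 300 bp are left out on the right.

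In the gene body, 0 of the 74 genes rose and 0 fell (limma with Benjamini-Hochberg adjustment, same thresholds), against 10.4% up and 11.4% down over all active genes. edgeR (background 10.5% up and 11.4% down) and DESeq2 (9.49% up and 10.8% down) also called 0 in either direction. At an unadjusted p under 0.05 there were 5 genes, all lower in KO, namely *Rps18*, *Rpl32*, *Rpl12*, *Rpl4* and *Rps29*. The median log2 fold change was -0.10, against -0.09 over all active genes. The changes of the 74 genes had an SD of 0.18, close to their median standard error of 0.16. Over all active genes the SD was 0.60 with a median standard error of 0.13. Both KO libraries lay below both WT libraries in 25 genes (background 42.8%) and above them in 3, *Rpl17*, *Rpl30* and *Rps4x* (background 27.6%).

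**Figure D4:**
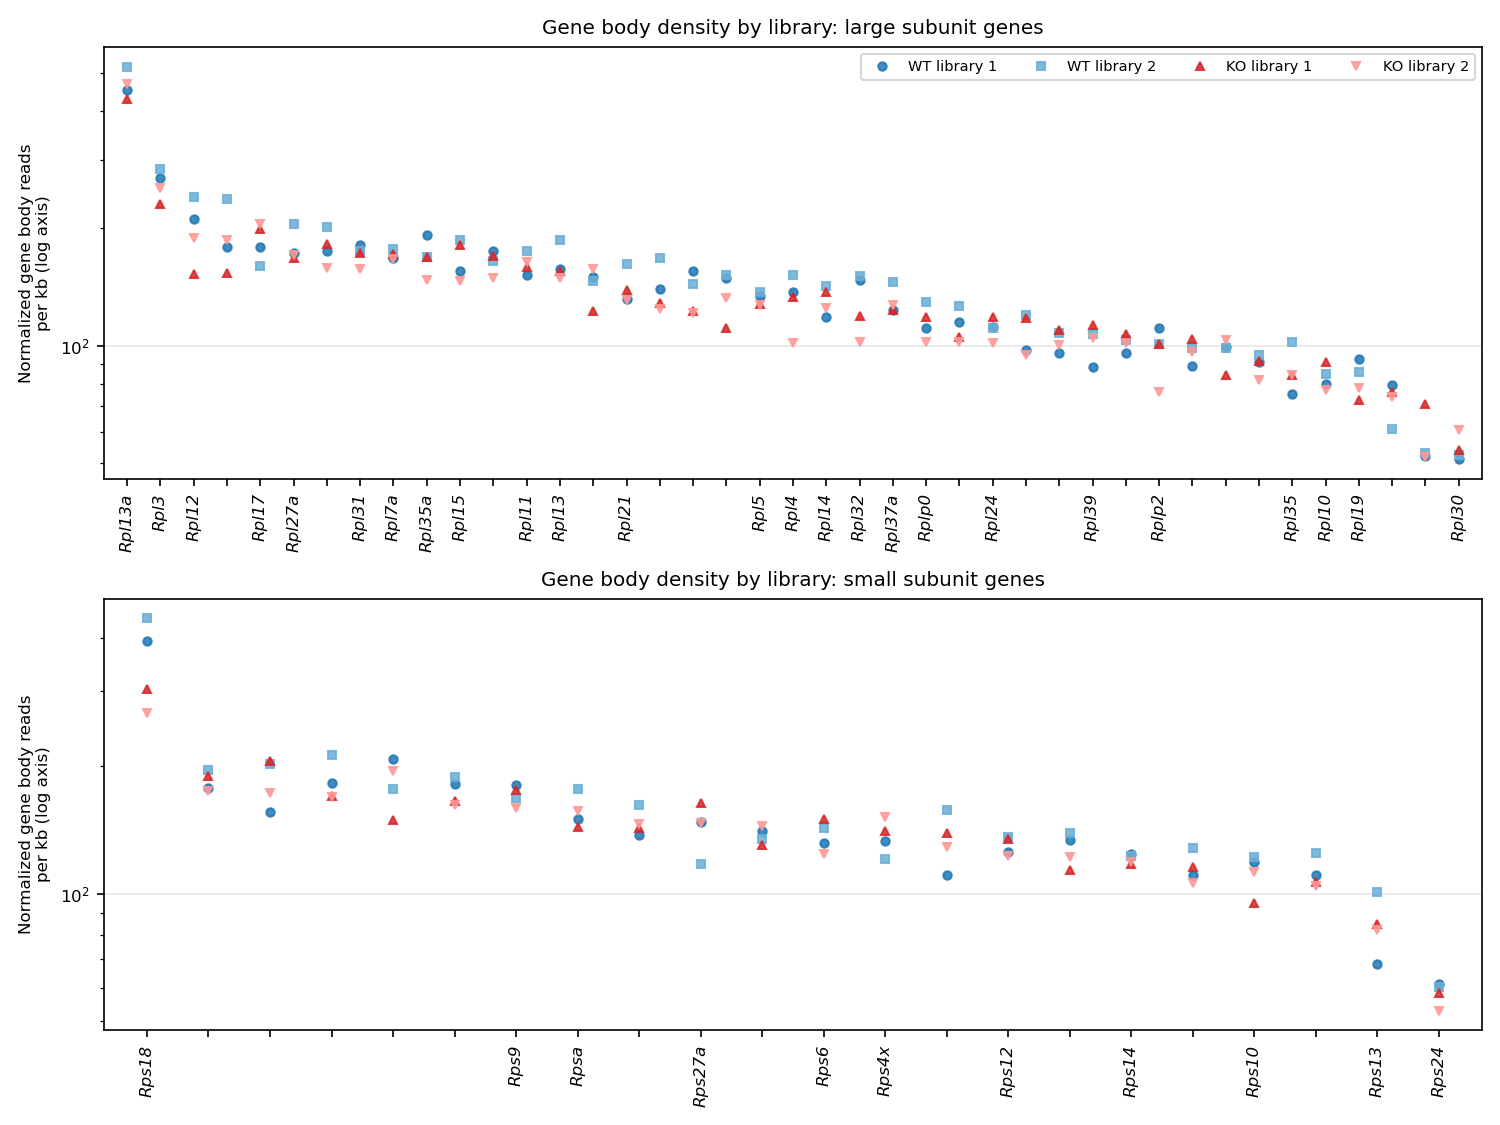
Gene body density (normalized reads per kb, log axis) of the 63 ribosomal protein genes with a gene body of at least 1 kb in each library, large subunit genes above and small subunit genes below, ordered by their mean, with the genes named in the text labelled. Blue symbols are WT and red symbols KO libraries. *Rpl13a* is the highest at 428 to 519 reads per kb, and *Rps18* stands out with both KO libraries well below both WT libraries.

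The highest gene body densities belonged to *Rpl13a*, *Rps18*, *Rps29*, *Rpl3* and *Rpl12*. *Rpl13a*, on chromosome 7 from 45125563 to 45128745, encodes a large subunit protein and holds 4 snoRNA genes. It is 1 of 5 genes (*Rpl13*, *Rpl13a*, *Rpl19*, *Rpl24* and *Rps10*) that overlap another annotated transcript on the same strand. SnoRNA genes and some other gene types were left out of this count. Its reads cannot be told apart from those of the overlapping transcript. Its density was 453 and 519 (WT) and 428 and 467 (KO) normalized reads per kb, with overlapping genotypes. Its gene body reads, 988 and 1133 (WT) and 935 and 1020.3 (KO), gave a log2 fold change of -0.12 (SE 0.12, adjusted p = 0.489). *Rps18*, on chromosome 17 from 33951998 to 33955665, encodes a protein of the small subunit head. Its density was 394 and 446 (WT) and 304 and 267 (KO) normalized reads per kb, and both KO libraries were clearly below both WT libraries. Its reads were 1041 and 1179 (WT) and 804 and 704 (KO), and the change of -0.56 (SE 0.13, adjusted p = 0.00107) passed the adjusted p but stayed within the fold threshold. In fits without WT1 or without KO1 it passed both, with log2 fold changes of -0.65 in each (adjusted p = 0.000205 and 0.0152, limma with Benjamini-Hochberg adjustment, backgrounds 11.1% and 11.3% down), and without WT1 *Rpl28*, which has a short gene body, passed too (-0.76, adjusted p = 0.0491). With no fold threshold, *Rps18* and *Rpl32* were lower (background 22.1% down) and 0 genes higher (background 17.0% up).

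*Rpl32*, on chromosome 6 from 115805514 to 115808743, had gene body reads of 328 and 337 (WT) and 265 and 228 (KO). KO was lower in both libraries, and the change was -0.43 (SE 0.16, adjusted p = 0.0332). With median-of-ratios scaling within gene bodies its adjusted p was 0.0602 (limma with Benjamini-Hochberg adjustment). *Rps29* had 169.8 and 191 (WT) and 143 and 129 (KO), and *Rpl12* 281 and 320 (WT) and 204 and 252 (KO). Both were lower in both KO libraries, with changes of -0.40 (SE 0.19, adjusted p = 0.0945) and -0.40 (SE 0.17, adjusted p = 0.0618) that did not pass the test. *Rps21*, with 1 to 4.59 reads in a gene body of 66 bp, had a change of -0.55 with a standard error of 0.94. On the other side, the largest values were 0.35 (SE 0.61, adjusted p = 0.683) for *Rps20*, whose gene body of 128 bp held 4.59 and 6 (WT) and 5.30 and 9.11 (KO), then 0.26 (SE 0.15, adjusted p = 0.183) for *Rpl17* and 0.23 (SE 0.19, adjusted p = 0.342) for *Rps27a*. *Rps27a* encodes a fusion of ubiquitin to a small subunit protein. The reads of *Rpl17* were 341 and 304 (WT) and 379.8 and 390.2 (KO), with both KO libraries above both WT libraries, and those of *Rps27a* 177 and 141 (WT) and 196 and 176 (KO), where the genotypes overlapped.

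The reads of the 74 genes were also summed. Their promoter-proximal sums were 33563 and 31080 (WT) and 52258 and 63847 (KO), which is 1.25% and 1.27% (WT) and 1.51% and 1.49% (KO) of all promoter-proximal reads. Both KO libraries were above both WT libraries, in reads and in share, with a log2 ratio of 0.84. *Rpl10* weighed on this share, and without it the shares were 1.06% and 1.10% (WT) and 1.21% and 1.23% (KO), and the log2 ratio 0.78. The gene body sums were 25494 and 27614 (WT) and 24763 and 23866 (KO), or 0.109% and 0.117% (WT) and 0.112% and 0.114% (KO) of all gene body reads. KO was slightly lower in reads, with a log2 ratio of -0.13, and the shares overlapped between genotypes. No test was made on these sums.

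The pausing index divides the density near the start by the density in the gene body. Its median over the 74 genes was 33.7 in WT and 58.2 in KO, against 47.0 and 72.6 over all active genes. It ran in WT from 2.33 (*Rps28*) to 1138 (*Rpl10*). The index rose in 6 genes (limma with Benjamini-Hochberg adjustment, same thresholds, background 11.2%) and fell in 0 (background 0.543%). The median log2 fold change was 0.70, against 0.61 over all active genes. Standard errors of this fit come from a trend over all active genes, with practically no weight on a gene's own spread between libraries. *Rps10*, on chromosome 17 from 27630415 to 27635244, encodes a small subunit protein near the mRNA entry, and overlaps an annotated read-through transcript. Its index was 77.1 and 87.9 (WT) and 229 and 181 (KO), with both KO libraries high, and its change 1.30 (SE 0.40, adjusted p = 0.0209). The index of *Rpl3* was 105 and 87.2 (WT) and 170.0 and 310.2 (KO), again with KO2 far above KO1, and its change was 1.26 (SE 0.39, adjusted p = 0.0242). Other genes called were *Rps26* (1.23 (SE 0.38, adjusted p = 0.0225)), *Rps18* (1.15 (SE 0.38, adjusted p = 0.0314)), whose gene body value is the lowest in KO relative to WT, and *Rps14* (1.12 (SE 0.39, adjusted p = 0.0438)), a gene known from the 5q- syndrome. The lowest changes were -0.24 (SE 0.39, adjusted p = 0.641) for *Rps4x*, -0.04 (SE 0.38, adjusted p = 0.933) for *Rps12* and -0.01 (SE 0.40, adjusted p = 0.984) for *Rpl12*. When each region was scaled by its own median of ratios, the count was 0 in limma (background 0.0157%), with 4 genes at an unadjusted p under 0.05. Among these 4 genes, *Rpl12* and *Rps12* were lower in KO. The median of the 74 genes was 0.05 at this scaling. The count was also 0 in each limma fit without WT1, without WT2 or without KO2, with 13, 8 and 11 genes at an unadjusted p under 0.05, and 21 without KO1 (backgrounds 0.331%, 0.213%, 1.35% and 36.0%). edgeR called 13 (background 14.1%) and DESeq2 8 (background 10.2%, over the 9749 genes to which DESeq2 gave an adjusted p, with 20 of the 74 left without one).

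The stalk of the large subunit, which recruits elongation factors, is built of the products of *Rplp0*, *Rplp1* and *Rplp2*. *Rplp1* had promoter-proximal reads of 383 and 334 (WT) and 667 and 588 (KO), and its change of 0.81 (SE 0.30, adjusted p = 0.0298) was called up, as was that of *Rplp2*, 0.77 (SE 0.29, adjusted p = 0.0356), with 384 and 533 (WT) and 687 and 864 (KO). In both genes the KO libraries lay above the WT libraries. *Rplp0* had 449 and 265 (WT) and 329 and 624 (KO), with overlapping genotypes and a change of 0.39 (SE 0.30, adjusted p = 0.297). *Rpl5* and *Rpl11* encode the proteins that bind 5S ribosomal RNA and, when free, the p53 regulator MDM2. *Rpl11* had 134 and 133 (WT) and 163 and 258 (KO), with both KO libraries higher, and *Rpl5* 161 and 281 (WT) and 243 and 326 (KO), with overlap. Their changes, 0.62 (SE 0.33, adjusted p = 0.13) and 0.40 (SE 0.31, adjusted p = 0.304), did not pass the test. Downstream, in the gene body, their changes were -0.02 and -0.09, and that of *Rplp0* was -0.13.

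*Rps6* encodes the small subunit protein that S6 kinase phosphorylates downstream of mTOR. Its promoter-proximal reads were 133 and 171 (WT) and 116 and 216 (KO), with KO1 the lowest and KO2 the highest of the 4, and a change of 0.07 (SE 0.33, adjusted p = 0.885). *Rpsa*, whose product is also known as the laminin receptor, had 326 and 243 (WT) and 341 and 499.5 (KO), with both KO libraries higher and a change of 0.55 (SE 0.30, adjusted p = 0.147). *Rps27a* had 111 and 132 (WT) and 149.6 and 292 (KO), where KO2 was far above KO1, and a change of 0.78 (SE 0.33, adjusted p = 0.0576). *Rpl13a* had 675 and 713 (WT) and 939.9 and 1268 (KO), all higher in KO, and a change of 0.65 (SE 0.28, adjusted p = 0.0661). None of these 4 genes was called.

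SnoRNA genes lay inside 29 of the 73 ribosomal protein genes that could be matched in the GENCODE M21 annotation. The 29 hosts had a median of 352 promoter-proximal reads and 138 gene body reads per kb, and the other 44 genes had 187 and 124. Promoter-proximal calls were 9 of 29 in hosts and 12 of 44 in the others (background 25.8%, also for the splits by promoter letters that follow), with median changes of 0.57 and 0.59. Gene body changes had medians of -0.10 and -0.09. Of the 54 genes with a RefSeq promoter, 40 had a run of at least 7 bases in some promoter and 11 of them were called up. Of the 14 without one, 3 were called, with median changes of 0.58 and 0.62. With the CCGGAAG motif, 7 of 22 genes were called up, and without it 7 of 32, with median changes of 0.61 and 0.57.

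Genes of translation, ribosome biogenesis and their regulators were counted in the same way. Of 28 translation initiation factor genes, 14 were called up in the promoter-proximal region and 0 in the gene body. The largest were *Eif6*, which keeps the subunits apart, with 1.20 (SE 0.29, adjusted p = 0.000558), *Eif3d* with 1.19 and *Eif3h* with 1.14. Of 12 elongation factor and other pyrimidine-tract genes, 5 were called up and 0 in the gene body, among them *Eef1d* (1.07), *Eef1g* (1.07) and *Gnb2l1* (1.06), which encodes the small subunit scaffold RACK1. Of 32 ribosome biogenesis genes, 12 were called up, with *Tsr1* (1.24), *Noc4l* (1.22) and *Rrp12* (1.06) the largest. *Nolc1* alone was called in the gene body, down (-0.70 (SE 0.15, adjusted p = 0.000688), limma with Benjamini-Hochberg adjustment). Of 19 genes for RNA polymerase I and its factors, 7 were called up, and *Polr2h* alone was called down in the gene body (-0.72). Of 14 genes for regulators of ribosomal protein genes, *Mtor* alone was called up (0.80), and 0 were called in the gene body. Of 6 noncoding snoRNA host genes, 3 were called up and 0 in the gene body. The background for all of these is 25.8% up in the promoter-proximal region, and 10.4% up and 11.4% down in the gene body. No list was tested as a set.

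*Fau* encodes a ribosomal protein too but its name falls outside the rule. It had promoter-proximal reads of 82.6 and 94 (WT) and 78.5 and 82.0 (KO) and a change of -0.13 (SE 0.35, adjusted p = 0.777), and it was called in neither region. Of 6 active genes in a list of ribosomal protein paralogs and genes outside the rule, *Rpl7l1* (0.89) and *Rpl22l1* (0.87) were called up. The 71 active genes of mitochondrial ribosomal proteins (*Mrpl* and *Mrps*), which serve the ribosome of the other compartment, had 12 up and 1 down in the promoter-proximal region (backgrounds 25.8% and 2.20%), with a median change of 0.53. Of their gene bodies, 4 fell and 0 rose (backgrounds 11.4% and 10.4%), with a median of -0.25, against -0.10 for the cytosolic genes. Both KO libraries lay below both WT libraries in 48 of the 71 mitochondrial genes and in 25 of the 74 cytosolic genes (background 42.8%). The difference between the families was not tested.

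The deposited list of intergenic enhancers, called on reads pooled over the 4 libraries, holds 2282 regions. A ribosomal protein gene was the closest gene for 8 of them, involving 6 genes, among them *Rpl11*, *Rpl21*, *Rpl14*, *Rps12* and *Rps24*. Within 50 kb, 8 enhancers had a ribosomal protein gene, involving 7 genes. The enhancer nearest to *Rpl11*, at chr4:136080677-136083991 (mm10), lay 27306 bp away by the authors' distance, and the one nearest to *Rpl21*, at chr5:146817432-146820118, lay 12772 bp away. By the interactions in 4DGenome, which come from many tissues, 126 enhancers were linked to 67 of the 74 genes. Links to other genes were not counted, so none of these counts has a background beside it. The list gives no values for single libraries, so the enhancers were not compared between genotypes.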

How the data were processed

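The deposited table lists promoter-proximal and gene body values of 20820 RefSeq transcripts. Per the labels and methods, the authors trimmed reads with cutadapt, aligned them to mm10 with Bowtie2, dropped ribosomal RNA and poorly mapping reads, and used NRSA for counting. The values deposited for WT2 are read counts, since its scaling factor is 1. Those deposited for WT1, KO1 and KO2 are normalized signal, the counts times 1.15, 1.06 and 1.52, and the densities deposited are signal per bp. Division by the factor gave whole reads (within 0.01) for 100% of values. Processed copies of ribosomal protein genes may take or lose reads in this mapping, which was not tested. The enhancer list deposited by the authors gives positions and distances in bp.

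Where a symbol had several transcripts, the one with most promoter-proximal signal over the 4 libraries stood for the gene. Log2 of normalized reads plus 1 was compared between genotypes (2 libraries each) with limma 3.58.1 in R 4.3.3 (trend, empirical Bayes, no block), with Benjamini-Hochberg adjustment over active genes. The activity cutoff, stated in the methods for a scaled total, was applied to the deposited scale. Scaled to the reads on genes it becomes 10.3 normalized reads per kb, which *Rplp1* (7.86) alone of the ribosomal protein genes did not reach. Alternatives were the recovered reads in edgeR 4.0.16 (quasi-likelihood) or DESeq2 1.42.0, pseudocounts of 0.1 and 10, other filters, scalings, thresholds and transcripts, a block for the replicate number, and fits with 1 library omitted. The procedure was tested on simulated data in which most genes did not change. It was therefore not tried on a shift shared by most genes, as in the promoter-proximal region. Standard errors of limma cover the spread between libraries, each from a pool, and not that between single mice. They do not separate pools from library preparation, and they are moderated across active genes by read level.

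Genes named are the 5 members with most promoter-proximal reads, the 5 with the highest gene body density, the 3 largest and 3 smallest changes per measure, the 5 called up with the smallest adjusted p, all called in the pausing index, a set of genes with known roles, and at most 3 called genes per list. Outside this rule, and named after values were seen, are *Rpl4*, *Rpl28*, *Rpl30*, the remaining genes in the list of those called up, and the members shown for their promoter letters, overlapping transcripts or nearby enhancers. Some genes are not reported here by name, in text or plots, but are counted. The members and all gene lists were chosen with earlier results of these data known. Promoters, motifs and gene positions came from RefSeq (GRCm38.p6) and snoRNA genes from GENCODE M21. Plots were drawn with matplotlib 3.10.9.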

Additional observations from a re-analysis of the deposited data

How the results depend on the processing

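The 21 ribosomal protein genes called up in the promoter-proximal region became 0 with no filter on activity (26 at an unadjusted p under 0.05 in limma, background 0.00%), 1 with median-of-ratios or TMM scaling within the region (background 4.99% with the former) and 10 at an adjusted p under 0.01 (background 12.1%), and ranged from 0 to 26 when 1 library was left out. The count was 20 to 23 with edgeR, DESeq2, other pseudocounts, the scaled density cutoff, scaling from gene bodies or another choice of transcript (backgrounds 23.8% to 26.1%). Among genes with a gene body of at least 1 kb it was 18 (background 25.8%). No setting called a ribosomal protein gene down in the promoter-proximal region (backgrounds 0.00% to 7.47%). In the gene body, the count called down was 0 in the setting reported (background 11.4%) and 2 with no fold threshold (background 22.1%). The count called up was 0 in every setting run (backgrounds 1.97% to 17.0%). With 1 library left out, the median gene body change of the ribosomal protein genes was -0.16 to -0.05. The pausing index count of 6 became 13 with edgeR or a pseudocount of 10 (backgrounds 14.1% and 18.8%), and 0 with no filter, median-of-ratios, TMM or an adjusted p under 0.01 (in limma, 26, 4, 4 and 27 genes at an unadjusted p under 0.05, backgrounds 0.00%, 0.0157%, 0.0315% and 2.02%), and ranged from 0 to 21 with 1 library left out. The log2 ratio of summed promoter-proximal reads, 0.84, became 0.27 with median-of-ratios and with TMM. The log2 ratio of summed gene body reads, -0.13, became -0.0452 with median-of-ratios, -0.0475 with TMM and -0.0452 with factors from gene bodies. Both scalings within the region set the median change of active genes near 0 by construction, and for the other settings the cause was not tested.

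The labels number the libraries 1 and 2 in both genotypes but do not say that a number marks a shared batch. With the replicate block, 10 genes were called up in the promoter-proximal region (background 13.9%). In the gene body 0 were called (backgrounds 10.4% up and 11.4% down), and 0 by pausing index (background 1.03%, limma, 11 at an unadjusted p under 0.05). Across active genes, promoter-proximal deviations of the libraries numbered 1 correlated at -0.11. A block on crossed numbers, an alternative chosen after the data had been seen, gave counts of 32 (background 38.3%), 0 (backgrounds 10.5% up and 11.5% down) and 27 (background 32.4%).

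With 2 libraries per genotype, standard errors of promoter-proximal changes had a median of 0.31 over these genes, and the smallest change called up was 0.74 (*Rps24*). KO2 had the fewest reads. The gene bodies of *Rpl41*, *Rps21*, *Rps20* and *Rplp1*, the shortest ones, hold too few reads to compare.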
